A study of Mus musculus with 48 samples.

Results

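The genes described here encode the proteins of the mouse cytosolic ribosome. They were chosen by symbol alone (Rpl or Rps followed by a number and an optional a, x or l, together with Rplp0, Rplp1, Rplp2 and Rpsa), and no measured value entered the choice. The rule matched 81 symbols, of which Rpl6l was left out because RefSeq lists it as a pseudogene. The remaining 80 genes are 30 of the small subunit, 43 of the large subunit, 3 of the P stalk and 4 paralogs (Rpl3l, Rpl10l, Rpl39l and Rps27l), out of 52636 gene IDs in the iNKT table and 35661 in the donor T cell table. A low-count filter removed Rpl3l and Rpl10l, so 78 genes were tested in each RNA comparison.

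All cells came from FVB/N mice. Bulk RNA and open chromatin (ATAC-seq) were measured in 2 libraries each of the thymic invariant natural killer T (iNKT) sublineages iNKT1, iNKT2 and iNKT17, sorted by flow cytometry. Single-cell RNA came from the total thymic iNKT cells of 2 mice, 8 weeks old, 1 thymus each. Conventional CD4 and CD8 T cells were sorted from spleen and peripheral lymph nodes either before transfer (day 0) or on day 7 after transplantation into fully mismatched BALB/c hosts, a model of graft-versus-host disease. The day 7 hosts had received no iNKT cells (untreated) or iNKT1, iNKT2 or iNKT17 cells, and each of the resulting 10 groups of donor T cells had 3 RNA libraries.

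A ribosome joins a small subunit, which reads the messenger RNA, to a large subunit, which forms peptide bonds. The P stalk, made of Rplp0, Rplp1 and Rplp2, recruits the elongation factors. Messenger RNAs of ribosomal proteins typically begin with a run of pyrimidines, the TOP motif, through which mTOR signalling and Larp1 set their translation, and T cells that leave quiescence build many new ribosomes. Some members have paralogs that can take their place: Rps27l for Rps27, which p53 also induces, and Rpl39l for Rpl39, best known from testis.

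The sequences around the annotated start are shown for the members on which the results below turn: the pairs Rps27 with Rps27l and Rpl39 with Rpl39l, whose RNA changed unequally in donor T cells, and Rpl37, whose start region differed in accessibility between iNKT sublineages. Each holds 60 bases before and 20 bases after the RefSeq start (GRCm38.p6), read 5′ to 3′ on the gene's strand. Capitals mark CTTTCC, a pyrimidine run of the kind that opens a TOP message, or CCGGAAG, the core of an ETS factor site.
Rps27, chr3:90213629-90213708, minus strand: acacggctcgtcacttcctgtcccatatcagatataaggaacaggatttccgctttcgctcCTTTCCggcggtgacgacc
Rps27l, chr9:66946026-66946105, plus strand, the first of 2 annotated starts: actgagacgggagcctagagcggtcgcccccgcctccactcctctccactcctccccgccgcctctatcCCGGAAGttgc
Rpl39, chrX:37085203-37085282, minus strand: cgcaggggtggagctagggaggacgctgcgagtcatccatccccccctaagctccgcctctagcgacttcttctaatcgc
Rpl39l, chr16:10170168-10170247, plus strand: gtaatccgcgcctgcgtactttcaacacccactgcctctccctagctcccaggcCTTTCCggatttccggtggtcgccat
Rpl37, chr15:5116553-5116632, plus strand: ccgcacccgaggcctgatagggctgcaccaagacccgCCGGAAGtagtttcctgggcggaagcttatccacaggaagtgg
Over windows of 300 bases (250 before and 50 after the start), searched on both strands, CTTTCC occurred in 50% of the 72 windows of 60 members and in 26.6% of all 32851 windows. CCGGAAG occurred in 36.1% of member windows and in 8.86% of all. AAGATGG, a YY1 core, occurred in 15.3% and 6.34%, and the TBP-binding motif TATAAA in 8.33% and 13.6%. These matches are descriptions of the letters in the windows. The other 20 members had no window in the table.

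Library totals were 26811373 to 33688697 counts in iNKT RNA and 25323879 to 37055182 in donor T cells. Levels are given as scaled CPM, a gene's count over the TMM-scaled library total, and a gene was called at a p under 0.05 in edgeR's quasi-likelihood test, adjusted by Benjamini-Hochberg over all genes tested. The labels do not say that libraries of a group came from separate animals, so p-values measure the spread between libraries, which may be technical, and donor groups mix 2 experiments that the columns do not tell apart. Identity genes followed the labels: Tbx21 was at 305 to 307 scaled CPM in iNKT1 libraries, Zbtb16 at 522 to 740 in iNKT2, Cd4 at 416 to 1280 in CD4 libraries and Cd8a at 349 to 973 in CD8 libraries. edgeR's common coefficient of variation was 1.3 for iNKT RNA, against 0.288 for CD4 and 0.196 for CD8 libraries, so iNKT comparisons could call only large or very even differences.

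iNKT2 cells gave the largest part of their bulk RNA to ribosomal proteins among the 3 sublineages. The 80 genes took 3.573% and 3.732% of counts in the iNKT2 libraries, 2.305% and 2.351% in iNKT1, and 2.49% and 2.141% in iNKT17. Both iNKT2 libraries lay above all 4 others, whereas iNKT1 and iNKT17 overlapped. In donor cells the share was 2.542%, 2.348% and 1.912% in CD4 day 0 libraries and 2.321%, 1.891% and 1.552% in CD4 day 7 untreated ones, which overlap. It was 2.705%, 2.458% and 2.772% in CD8 day 0 and 2.028%, 2.482% and 2.029% in CD8 day 7 untreated libraries, where 1 day 7 library reached into the day 0 range. Group means on day 7 with iNKT cells were 1.774% to 1.922% for CD4 and 1.907% to 2.054% for CD8. In bulk samples, fewer cells of a type and less RNA per cell cannot be told apart.

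**Figure D1:**
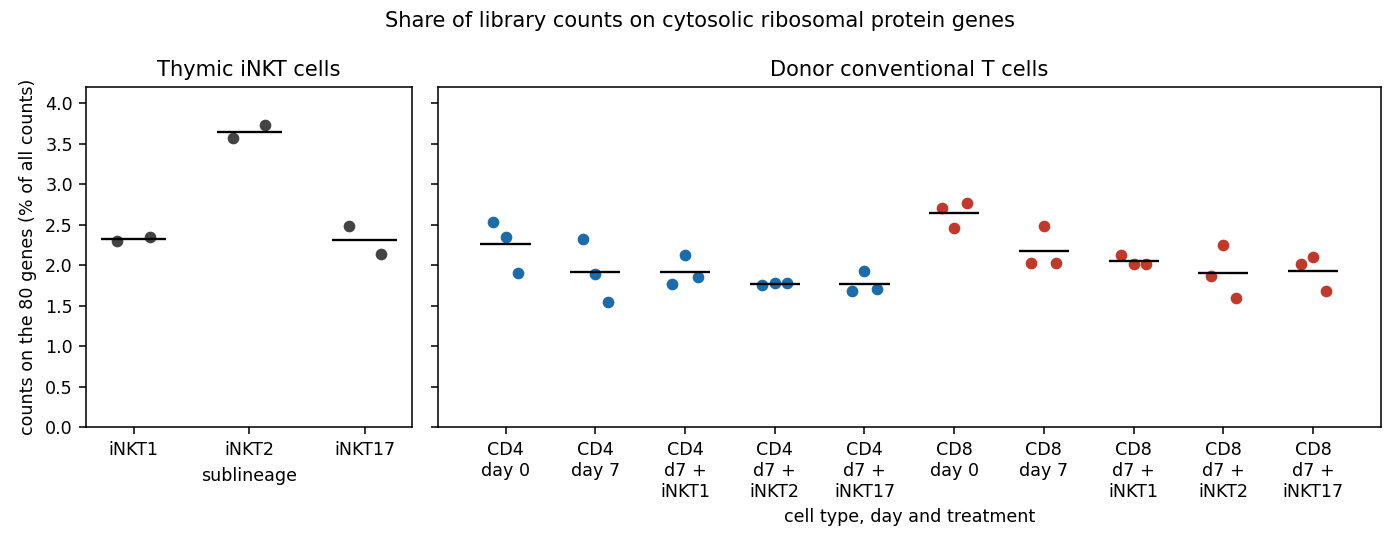
Percent of all counts on the 80 ribosomal protein genes in each bulk RNA library (points) with the group mean (bar), for thymic iNKT sublineages (left) and donor T cells by cell type, day and treatment (right). The 2 iNKT2 libraries, at 3.573% and 3.732%, lie above the other 4 iNKT libraries, and the donor groups overlap for the most part.

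Against iNKT1, iNKT2 cells had higher levels of most ribosomal protein genes, in both subunits and the P stalk. Of 78 tested genes, 68 had a positive log2 fold change, with a median of 0.62 beside 0.09 over all 12372 genes tested. The median was 0.52 for the small subunit (26 of 30 positive), 0.66 for the large subunit (38 of 43) and 0.69 for the P stalk (3 of 3). Only 3 genes passed the test, all higher in iNKT2: Rps20, Rpl32 and Rpl41. Over all genes 0.533% were called higher and 1.29% in either direction. DESeq2 called 17 members higher and 0 lower, where it called 4.24% of all genes higher. The 2 iNKT2 libraries lay above both iNKT1 libraries for 47 members and below them for 2, while over all genes 23.4% and 20.7% did so. The edgeR count fell to 1 without iNKT1 library 1 or iNKT2 library 2 and to 0 without iNKT1 library 2. The median stayed between 0.52 and 0.66 when any single library was left out.

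Rps20, a protein of the small subunit's head, was at 349.5 and 331.7 scaled CPM in iNKT1, 738 and 800.4 in iNKT2, and 644 and 609.8 in iNKT17. The iNKT2 and iNKT1 libraries were far apart, with iNKT17 between them (log2 fold change iNKT2 over iNKT1 1.18 ± 0.21 SE, adjusted p = 0.030). Rpl32, of the large subunit, was at 662.1 and 702.8 in iNKT1, 1605 and 1449 in iNKT2, and 771.1 and 731.8 in iNKT17. Here iNKT2 stood alone, with iNKT17 close to iNKT1 (1.16 ± 0.19, adjusted p = 0.014). Rpl41, the smallest ribosomal protein, was at 315.6 and 351.1, 658.6 and 813.1, and 619.5 and 644.6 in the same order. Its iNKT17 libraries lay just under the iNKT2 ones (iNKT2 over iNKT1 1.14 ± 0.23, adjusted p = 0.046). The Rps20, Rpl32 and Rpl41 calls were each lost without iNKT1 library 1 or library 2, and those of Rps20 and Rpl41 in further alternatives.

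No P stalk gene passed the test. Rplp0, whose iNKT2 libraries lay above all 4 others, was at 1114 and 1062 scaled CPM in iNKT1, 1811 and 1896 in iNKT2, and 1397 and 1186 in iNKT17 (iNKT2 over iNKT1 0.77 ± 0.17, adjusted p = 0.084). Rplp1 was at 603.7 and 592.9, 886.8 and 944.1, and 728.4 and 583.8 (0.61 ± 0.21, adjusted p = 0.375). Rplp2 overlapped among the sublineages, with 179.2 and 114.7, 168 and 305.5, and 221.3 and 89.84. Of the other key members, Rps4x (log2 fold change 0.71, adjusted p = 0.32), Rpl22 (0.81, adjusted p = 0.43) and Rpl39 (1.40, adjusted p = 0.18) were also higher in both iNKT2 libraries than in both iNKT1 libraries, short of the threshold. Rpl3, which lies near the peptidyl transferase centre, had 137.9 and 135 in iNKT1 and 179.8 and 126.8 in iNKT2, and did not separate them. Rpl10, a late-joining large subunit protein, had 156.2 and 150.8 against 178.3 and 148.3.

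**Figure D2:**
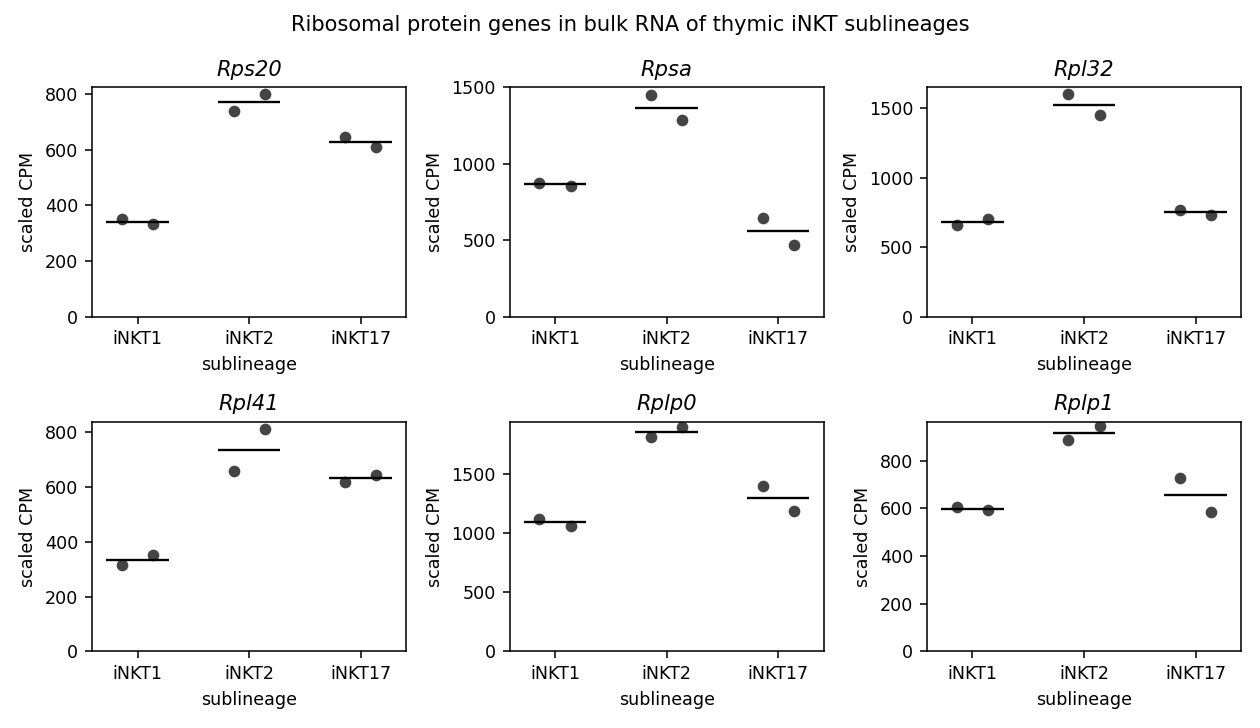
Scaled CPM of 6 ribosomal protein genes in the 2 bulk RNA libraries of each thymic iNKT sublineage (points), with the group mean (bar). Rps20, Rpl32 and Rpl41 are the 3 genes called higher in iNKT2 than in iNKT1, Rpl32 and Rpsa the 2 called lower in iNKT17 than in iNKT2, and Rplp0 and Rplp1 passed neither test.

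iNKT17 cells had lower ribosomal protein RNA than iNKT2 cells and about the level of iNKT1 cells. Against iNKT2, 70 of 78 members were lower, with a median log2 fold change of −0.68 beside −0.09 over all genes, and −0.62, −0.72 and −0.52 for the small subunit, the large subunit and the P stalk. Rpsa and Rpl32 passed the test and no member was called higher. Over all genes 0.275% were called lower, 0.436% higher and 0.711% in either direction, and DESeq2 called 15 members lower beside 6.13% of all genes. The iNKT17 libraries lay below both iNKT2 libraries for 48 members and above them for 2, where all genes gave 22.9% and 16.2%. Without iNKT17 library 1 the edgeR count was 12, without iNKT2 library 1 it was 1, and without iNKT17 library 2 the median was −0.51. This comparison and the previous one share the iNKT2 libraries, so their opposite signs are not independent.

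Rpsa, the laminin receptor homolog that sits at the small subunit's RNA exit, was at 1451 and 1284 scaled CPM in iNKT2 and 644.7 and 469.5 in iNKT17, with 876.3 and 853.4 in iNKT1. Its iNKT17 libraries were the lowest of the 6 (iNKT17 over iNKT2 −1.30 ± 0.22, adjusted p = 0.031; iNKT17 over iNKT1 −0.63, adjusted p = 0.295). The Rpsa call was lost when counts on rows named as its pseudogenes were added or when only the 2 compared groups were fitted. Rpl32, with the levels given above, fell by 1.02 ± 0.18 (adjusted p = 0.045), a call lost in 4 alternatives that included other library scaling and leaving out iNKT2 library 1.

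Against iNKT1, iNKT17 cells had 39 members higher and 39 lower, with a median of −0.00 beside −0.03 over all genes. No member passed edgeR's test, where 2.0% of all genes did (0.986% higher, 1.01% lower), and 6 members had an unadjusted p under 0.05. DESeq2 called 5 higher and 2 lower, where it called 5.64% of all genes higher and 7.6% lower. The edgeR count was 7 without iNKT17 library 1 and 1 without iNKT1 library 1 or iNKT17 library 2, and the median ran from −0.18 to 0.03. Libraries did not overlap for 14 members higher and 17 lower in iNKT17, near the 18.2% and 22.3% of all genes. Rps20 was the member with the largest fold change relative to its error (0.88 ± 0.21, adjusted p = 0.089).

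Values for other cells and for RNA quality moved with the sublineages too. The summed scaled CPM of 7 cycling genes, whose protein products act in division, was 344 to 361 in iNKT2, 56.7 to 178 in iNKT1 and 93.5 to 319 in iNKT17. Mitochondrial transcripts took 2.579% to 3.133% of counts in iNKT2, 2.013% to 2.21% in iNKT1 and 2.81% to 2.865% in iNKT17. B and plasma cell genes summed to 33.2 to 43 in iNKT2, 133 to 169 in iNKT1 and 31.9 to 137 in iNKT17, with 6, 7 and 8 of 10 at 0, Ms4a1 and Jchain among them in each. Myeloid genes summed to 46.5 to 130, 239 to 316 and 89.8 to 149, with 7, 6 and 7 of 11 at 0, erythroid and platelet genes to at most 1.12, and stromal genes to 129 to 152, 5.53 to 19.2 and 64.6 to 91.2, with 5, 4 and 4 of 7 at 0, Dcn and Krt5 among them in each. Thymocyte genes summed to 34.1 to 41.4, 0.0599 to 5.86 and 0 to 7.53. Their part in the results was not tested.

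Many members were measured poorly in the iNKT bulk table, which limits the gene-level statements. There, 20 of the 80 genes had a library under 1 CPM, against 3 in donor cells, and 28 had more counts on rows named as their pseudogenes than on the gene itself (median over libraries), against 5 in donor cells. Rps16 had a median of 35.9 unscaled CPM beside 897 on its pseudogene rows, and Rps6, whose protein is the S6 kinase target, 26.7 beside 563. Rpl41 and Rps20 had 0 there and Rpl32 had 0.404, so the 3 genes called in iNKT2 do not carry this split with rows so named. Copies under other names were not searched, so a split with those cannot be judged. How reads shared with such copies were counted is not given in the sources used here. Rps27 (19.86 and 70.37 scaled CPM in iNKT1, 0.1015 and 10.43 in iNKT2) and Rps6 (24.22 and 5.091, 28.87 and 38.4) had standard errors above 2 on the log2 scale. Their bulk iNKT fold changes are not interpreted here. Pseudogene rows in all took 1.052% to 1.88% of iNKT counts, and adding them widened the iNKT2 minus iNKT1 difference in share from 1.324 to 1.949 percentage points.

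Single-cell RNA also gave the highest share to iNKT2-like cells, and placed iNKT17-like below iNKT1-like cells, which bulk RNA did not separate. In thymus A 42.35% of UMIs (95% exact binomial interval 42.24 to 42.45, counting error only) and in thymus B 42.04% (41.94 to 42.14) fell on the 80 genes, over 138 and 144 cells. The 3′ counting of molecules and the bulk counts differ in what they count, so the 2 scales are not compared. Barcodes with 1 to 100 UMIs, taken as free RNA, had 38.32% and 37.07%. The 2 thymi shared 0 barcodes among kept cells and ranked 77 members nearly alike (Spearman 0.99, across genes, a description). Single cells and iNKT bulk medians ranked these members very differently (Spearman 0.12), and single cells and donor bulk medians gave 0.39. The shares in bulk and in single cells thus rest on differently weighted members.

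Cells were clustered without the member genes, so that membership did not depend on them. At the coarser of 2 resolutions, 145 cells were iNKT2-like, led by Izumo1r, Cd4, Il4 and Il6ra, 91 iNKT1-like, led by Ccl5, Nkg7 and Gzma, and 46 iNKT17-like, led by Blk, Pxdc1, Sdc1 and Il1r1. The ribosomal protein share was 44.06% in thymus A and 44.71% in thymus B for iNKT2-like cells, 40.74% and 38.53% for iNKT1-like cells, and 36.45% and 35.8% for iNKT17-like cells. The order was the same in both thymi. Differences between clusters exceeded counting error, but so did that between the thymi for iNKT1-like cells (intervals 40.54% to 40.94% and 38.28% to 38.78%). Counting error therefore does not measure the spread between mice. Single cells overlapped: the 5th to 95th percentiles in thymus A were 37.05% to 49.02%, 33.3% to 46.26% and 32.41% to 40.81%. Median UMIs per cell were 7378, 3952 and 4985, highest in the iNKT2-like cells as the share was, and the part of depth was not tested. No test was run over the 2 mice. At the finer resolution the iNKT17-like cells again numbered 46, with equal shares, 67 iNKT1-like cells had 40.92% and 38.44%, and 3 unnamed clusters had 39.61% to 44.65%. Of these, the clusters of 83 and 61 cells had mean log2 ratios of 0.59 and 0.18 on the iNKT2 list.

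**Figure D3:**
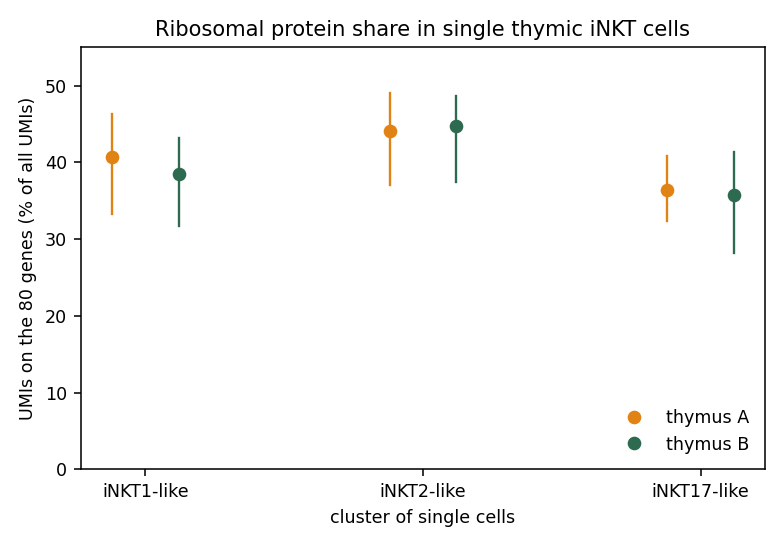
Percent of UMIs on the 80 ribosomal protein genes in clusters of single thymic iNKT cells, pooled over the cells of each thymus (points), with the 5th to 95th percentile of single cells (lines). In both thymi the share is highest in iNKT2-like (44.06% and 44.71%) and lowest in iNKT17-like cells (36.45% and 35.8%).

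The lower share of iNKT17-like cells was spread over nearly the whole set. Of 77 members with at least 100 UMIs, 74 were lower in iNKT17-like than in iNKT2-like cells in both thymi, with a median ratio of 0.802. Other genes were not counted in this way for any pair of clusters. These counts are therefore not shown to be particular to the members. Rpl29 had a mean ratio of 0.628, Rpsa 0.636 (3718 and 3700 against 5732 and 5931 CPM of UMIs), Rpl14 0.672 and Rpl3 0.684. Of the 2 genes called in bulk, Rpsa was thus among those with the lowest ratios, while Rpl32, at 0.794, was near the median. Only Rplp1 (1.03) and Rps27l (1.21) were higher in iNKT17-like cells in both thymi. Against iNKT1-like cells 46 were lower and 17 higher, with a median ratio of 0.92, running from Rps27 (0.725), Rpl37 (0.727) and Rpl14 (0.742) to Rps26 (1.27), Rpl31 (1.31) and Rps27l (1.32).

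iNKT2-like cells exceeded iNKT1-like cells for 59 members in both thymi and fell below for 8, with a median ratio of 1.13, again without a count over all genes. Rpl28 (1.63), Rpl15 (1.49), Rps26 (1.48) and Rplp0 (1.45) had the largest ratios, and the genes called in bulk had 1.37 (Rps20), 1.21 (Rpl41) and 1.18 (Rpl32). Rps27 was lowest, at 12770 and 12510 CPM of UMIs in iNKT2-like against 15060 and 14240 in iNKT1-like cells (ratio 0.863), followed by Rpl38 (0.891). The paralogs Rpl39l, Rpl10l and Rpl3l had 2, 1 and 0 UMIs over all kept cells, too few to compare.

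Regions of open chromatin at the ribosomal protein genes mostly had lower counts in iNKT2 and iNKT17 than in iNKT1 cells. In both comparisons a smaller share of them than of all regions was called, counting either direction. Of 54524 ATAC regions, 124 lay at 78 members (within 1000 bases of the RefSeq gene), and most of these had fewer counts in iNKT2 and iNKT17 than in iNKT1. For iNKT2 over iNKT1, 101 of 124 regions were negative, with a median log2 fold change of −0.23 beside 0.06 over all regions; 28 were called lower and 1 higher, where all regions gave 16.3% lower, 22.3% higher and 38.6% in either direction. With the replicate number as a block, since numbers pair these libraries, 52 were lower and 3 higher (25.9% and 27.6% of all regions). For iNKT17 over iNKT1, 100 were negative with a median of −0.24, and 10 were lower and 1 higher (13.6%, 23.5% and 37.1% in either direction of all regions), or 45 and 1 with the block (24.8% and 28.7%). For iNKT17 over iNKT2 no region was called by edgeR (8.34% of all regions were, 5.11% higher and 3.24% lower), with 5 at an unadjusted p under 0.05. DESeq2 called 2 lower and 0 higher, beside 3163 lower and 3640 higher of all 54520 regions tested. With the block 5 were higher and 2 lower (10.8% and 7.7%), and the median was 0.03. Leaving out iNKT1 library 1 or 2 or iNKT2 library 1 took the first count to 14, 3 and 7, and leaving out iNKT1 library 1 or 2 or iNKT17 library 1 took the second to 6, 4 and 5. Regions at 1 gene are not independent of each other.

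Regions over annotated starts were nearly all negative. There 57 of 58 regions were negative for iNKT2 over iNKT1 (median −0.33, 15 called lower). For iNKT17 over iNKT1 56 were negative (median −0.26, 5 called lower), and in each 44 of the 66 other regions were negative. Over all regions the medians were 0.06 and 0.07, with 16.3% and 13.6% called lower. Start regions of other genes were not counted apart, so this pattern is not shown to be particular to the members. The region over the Rpl37 start, chr15:5116030-5116726, which holds the sequence printed above, had 100.2 and 139 scaled CPM in iNKT1, 47.97 and 60.72 in iNKT2, and 51.45 and 78.49 in iNKT17. Both iNKT1 libraries were above the rest (iNKT2 over iNKT1 −1.14 ± 0.26, adjusted p = 0.0084; 4.05e-05 with the block). The Rps23 start region, chr13:90922708-90923597, had 102.8 and 138.6, 49.92 and 66.54, and 66.75 and 92.13 (−1.05 ± 0.24, adjusted p = 0.0092). A region near Rpl7, chr1:16104892-16106041, lay outside the annotated gene (16101295 to 16104433) but within 1000 bases of it, and so not over its start. It had 78.97 and 101.5, 30.51 and 37.09, and 34.92 and 49.57 (−1.42 ± 0.23, adjusted p = 0.0019).

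Of the genes named above for their RNA in iNKT2, none had a region called more open there without the block. The region nearest the Rpl32 start was lower in iNKT2 (−0.68 ± 0.20, adjusted p = 0.0257), as was that at Rps20 (−0.84 ± 0.26, adjusted p = 0.031), while Rpl41 (−0.19, adjusted p = 0.41), Rplp0 (−0.09, adjusted p = 0.71) and Rpsa (−0.41, adjusted p = 0.096; 0.0055 with the block) did not pass the test without the block. The single region called higher, chr7:3706980-3707285, lay 2939 bases from the Rps9 start and past the gene's annotated end at 3706897. It is not shown to act on Rps9. Rps9 RNA was at 1191 and 1137 scaled CPM in iNKT1, 2065 and 2153 in iNKT2, and 1669 and 1150 in iNKT17 (iNKT2 over iNKT1 0.86 ± 0.20, adjusted p = 0.101). This RNA was highest in iNKT2, short of the threshold, and overlapped between iNKT17 and iNKT1. The region had 1.095 and 1.363 scaled CPM in iNKT1, 7.731 and 11.34 in iNKT2, and 5.727 and 5.988 in iNKT17 (iNKT2 over iNKT1 2.96 ± 0.34, adjusted p = 0.0004; iNKT17 over iNKT1 2.26 ± 0.33, adjusted p = 0.00081).

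In donor T cells, day 7 in the host changed a minority of ribosomal protein genes, in both directions. The set's share of counts, given above, had a lower mean on day 7 in both cell types, with overlapping libraries. In CD8 cells 12 members were higher and 14 lower on day 7, which is 33.3% of 78, where 60.7% of all 14586 genes were called (30.9% higher, 29.8% lower). The median log2 fold change was −0.00 beside −0.05 over all genes. In CD4 cells 4 were higher and 9 lower, 16.7% of 78, where 35.6% of 15031 genes were called (17.4% higher, 18.2% lower), with a median of −0.04 beside −0.08. The CD4 count was 8 without day 0 library 1, 6 without day 7 untreated library 2 and 5 when only the compared groups were fitted. Of the 13 CD4 calls 9 were lost under some alternative, those of Rps27, Rps19 and Rpl29 were not, and Rps2 reversed. Of the 26 CD8 calls 9 were lost under some alternative. Neither share of members called exceeds that of all genes.

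Most members called in CD4 cells were called in the same direction in CD8 cells. Over all genes 30.9% were called higher and 29.8% lower in CD8 cells. The overlap of calls between the cell types was not counted over all genes, so this one is not shown to be particular to the members. All 4 members called higher in CD4 cells (Rpl27, Rpl29, Rpl39l and Rps27l) were called higher in CD8 cells, where they made 33.3% of 12. Rpl39l passed the low-count filter only through day 7 libraries, which favoured a call in this direction. Of 9 lower in CD4 cells, 7 (77.8%) were lower in CD8 cells, where they made 50.0% of 14, among them Rpl12, Rpl13, Rps19, Rps27 and Rps29. One of the 7 is Rps2, which turns direction when its pseudogene rows are added. Without Rps2 these were 6 of 8 (75.0%) and 46.2% of 13. Rpl10a and Rps24 were called in CD4 cells alone. These 2 comparisons share no libraries, although CD4 and CD8 libraries with the same title number may come from the same animals. In CD8 cells the small subunit had 2 higher and 7 lower members, the large subunit 8 and 6, and the P stalk 0 and 1. In CD4 cells these were 0 and 5, 2 and 4, and 0 and 0, and both tested paralogs were higher in each cell type.

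**Figure D4:**
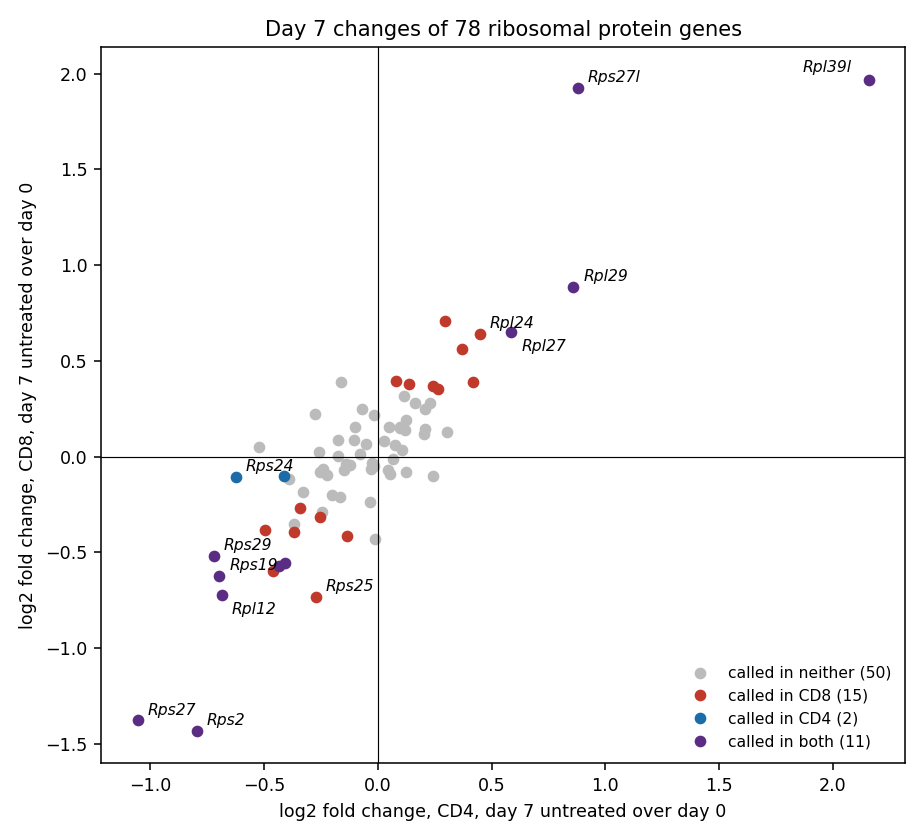
Log2 fold change of 78 ribosomal protein genes from day 0 to day 7 untreated in CD4 (x axis) and CD8 (y axis) donor T cells, coloured by the cell type in which the gene was called. Genes called in both cell types lie in the upper right (Rps27l, Rpl39l, Rpl29, Rpl27) and lower left (Rps27, Rps19, Rps29, Rpl12 and others) quadrants. Rps2 is plotted from its own row and turns direction when its pseudogene rows are added.

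Rps27 and its paralog Rps27l moved in opposite directions. Rps27 was at 626.2, 540.4 and 482.5 scaled CPM in CD4 day 0 and 360.6, 244.8 and 188.2 in CD4 day 7 untreated libraries. In CD8 cells it was at 566, 553.3 and 576.4 on day 0 and 200.2, 242.9 and 209.1 on day 7. All day 7 libraries were below all day 0 libraries, and the log2 fold change was −1.06 ± 0.20 in CD4 cells (adjusted p = 0.00098) and −1.38 ± 0.14 in CD8 cells (adjusted p = 6.5e-07). Rps27l was at 31.61, 42.74 and 32.93 in CD8 day 0 and 165.9, 128.6 and 112.7 in CD8 day 7 libraries (1.92 ± 0.15, adjusted p = 5.3e-08). In CD4 cells it was at 38.89, 31.8 and 74.31 on day 0 and 100.8, 96.68 and 69.18 on day 7, where the third day 0 library lay above the lowest day 7 library (0.88 ± 0.28, adjusted p = 0.027). The CD4 call for Rps27l was lost when only the 2 groups were fitted and without day 0 library 1 or 2 or day 7 library 1 or 2.

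Counted together, Rps27l gave 5.95% ± 1.05 (SD, n = 3) of the reads on the pair in CD8 day 0 cells and 38.3% ± 6.05 in CD8 day 7 untreated cells. In CD4 cells the share went from 8.25% ± 4.42 to 25.7% ± 3.4. Day 0 and day 7 ranges did not overlap in either cell type. With iNKT cells the share stayed between 42% and 44.5% in CD8 group means and between 25.2% and 27.9% in CD4 group means. The larger Rps27l increase in CD8 than in CD4 cells was not called by edgeR (difference in log2 fold change 1.02 ± 0.34, adjusted p = 0.059) and was called by DESeq2 (adjusted p = 0.027). In thymic iNKT cells the balance of the pair differed with the method. Single cells held 145 and 149 UMIs on Rps27l beside 10932 and 11041 on Rps27. Bulk iNKT group means for Rps27l were 30.3% to 84.3% of the pair. The donor percentages therefore describe reads on the 2 rows, and the true proportions of the 2 RNAs cannot be judged from them.

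**Figure D5:**
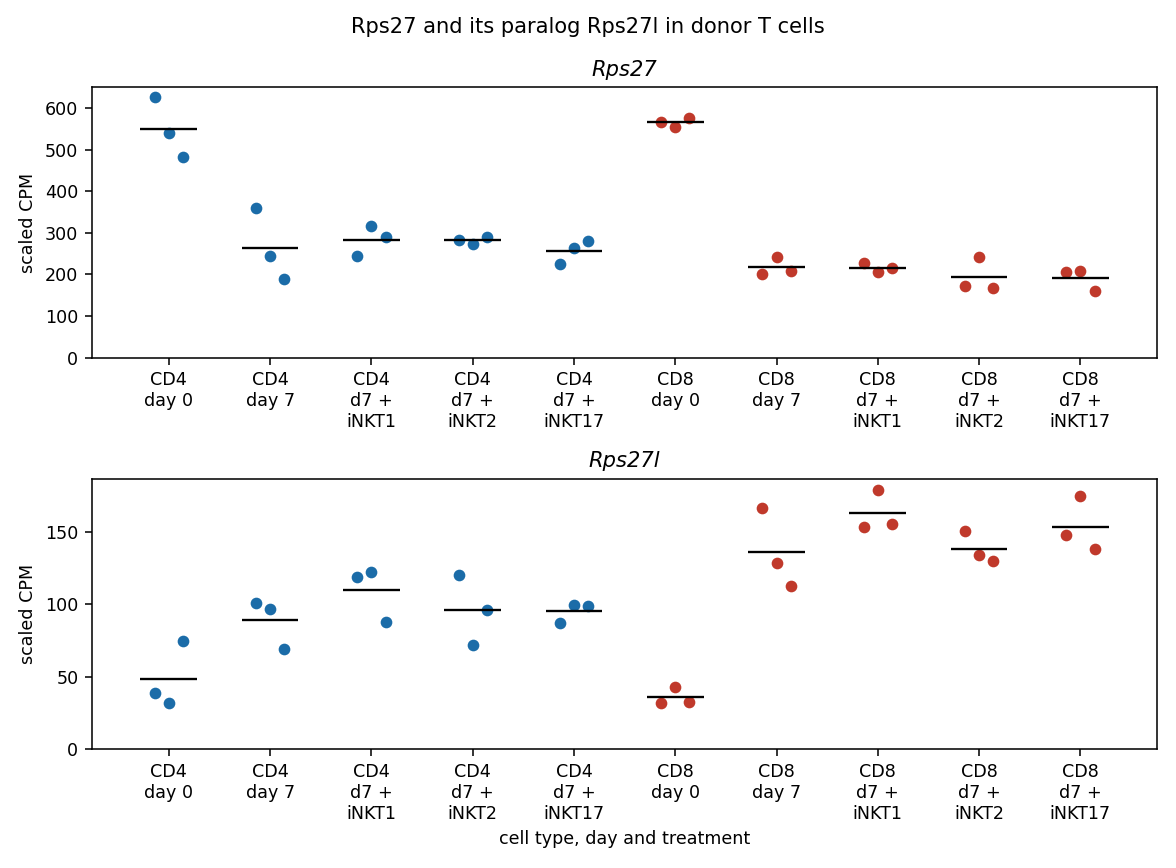
Scaled CPM of Rps27 (upper panel) and Rps27l (lower panel) in the 3 libraries of each donor T cell group (points), with the group mean (bar). Every day 7 group lies below day 0 for Rps27; for Rps27l the CD8 day 7 libraries lie above all CD8 day 0 libraries, and 1 CD4 day 0 library, at 74.31, reaches into the day 7 range.

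The other members that rose in both cell types were of the large subunit. Rpl29 was at 36.15, 32.14 and 30.77 scaled CPM in CD4 day 0 and 67.44, 59.56 and 52.76 in CD4 day 7 libraries, and at 34.91, 31.02 and 38.21 against 59.79, 76.05 and 56.89 in CD8 libraries. The groups did not overlap (CD4 0.86 ± 0.14, adjusted p = 0.00036; CD8 0.89 ± 0.13, adjusted p = 3.6e-05). Rpl27 was at 127.7, 107 and 91.62 and then 203.1, 159.9 and 127.2 in CD4 cells, which overlap (0.59 ± 0.16, adjusted p = 0.012), and at 125.6, 128.1 and 122.2 and then 211.9, 206.8 and 171.6 in CD8 cells (0.65 ± 0.12, adjusted p = 0.00026). Rpl39l was rare throughout and passed the low-count filter only through day 7 libraries, so its rise is not independent of the filter. It was at 0.1234, 0.1141 and 0.4111 in CD4 day 0 and 1.059, 1.053 and 0.7497 in CD4 day 7 libraries (2.16 ± 0.70, adjusted p = 0.027), and at 0.2871, 0.1554 and 0.4522 against 1.159, 1.426 and 0.9617 in CD8 libraries (1.97 ± 0.45, adjusted p = 0.0014). It made up 1.69% and 1.5% of the reads on Rpl39 and Rpl39l together in CD4 and CD8 day 7 cells, and Rpl39 itself did not pass the test in either (0.12 and 0.32).

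CD8 cells alone passed the test for further increases. Rpl24, which bridges the 2 subunits, was at 140.2, 124.7 and 136.9 scaled CPM on day 0 and 202.6, 229.1 and 194.5 on day 7 (0.64 ± 0.12, adjusted p = 0.0004). Rpl41 was at 406.6, 364.5 and 432.8 and then 514.2, 701.9 and 558 (0.56, adjusted p = 0.0081). Rpl38, a large subunit protein linked to translation of Hox messages, had a log2 fold change of 0.40 (adjusted p = 0.0053). No member passed the test of the difference between CD8 and CD4 changes (8.78% of 15601 genes did, 4.49% higher and 4.29% lower). Here 4 had an unadjusted p under 0.05, and DESeq2 called 1, Rps27l, beside 13.1% of all genes. edgeR's count of 0 became 1 without CD4 day 0 library 1 or 2, CD8 day 0 library 2 or CD8 day 7 untreated library 3.

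Members that fell in both cell types included Rps19, the small subunit gene most often mutated in Diamond-Blackfan anaemia. It was at 952.5, 876.9 and 949.3 scaled CPM in CD4 day 0 and 682.1, 534.7 and 498.3 in CD4 day 7 libraries (−0.70 ± 0.15, adjusted p = 0.0023), and at 891.1, 929 and 876 against 599.8, 572.1 and 579.7 in CD8 libraries (−0.62 ± 0.10, adjusted p = 9.9e-05). All day 7 libraries lay below all day 0 libraries. Rps29, a zinc-binding small subunit protein, was at 335.6, 306.5 and 254.9 and then 243.6, 173.3 and 127.5 in CD4 cells (−0.72 ± 0.20, adjusted p = 0.0118), and at 301.3, 269.6 and 323.2 and then 212.9, 242.5 and 167.5 in CD8 cells (−0.52, adjusted p = 0.0049). Rpl13 went from 1803, 1803 and 1733 to 1126, 1323 and 1184 in CD8 cells (−0.56, adjusted p = 0.00066), without overlap. Rplp1 of the P stalk went from 209.5, 183.7 and 202.1 to 135.2, 170.8 and 149.9 in CD8 cells (−0.39 ± 0.13, adjusted p = 0.019), while Rplp0 and Rplp2 did not pass the test in either cell type.

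Rps2 also fell on its own row but carries a counting limit. The gene row held 9.8 to 15.3 unscaled CPM in CD4 day 0 and 6.27 to 7.71 in CD4 day 7 libraries, beside 510 to 867 and 680 to 930 on rows named as its pseudogenes. In CD8 cells it held 16.9 to 29 and 7 to 7.82, beside 808 to 1040 and 924 to 1330. The log2 fold change of −0.79 ± 0.21 (CD4, adjusted p = 0.0084) and −1.43 ± 0.20 (CD8, adjusted p = 2.4e-05) turned to 0.28 and 0.36 when those rows were added. No direction is therefore given for Rps2.

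Several key members held their level at day 7. Rps6 had log2 fold changes of −0.05 ± 0.14 (CD4) and 0.07 ± 0.12 (CD8), Rpl3 0.05 ± 0.13 and 0.15 ± 0.13, Rps4x 0.07 ± 0.18 and 0.06 ± 0.12, and Rpl22, a large subunit protein needed by developing T cells, −0.12 ± 0.20 and −0.04 ± 0.16. None passed the test. Rpsa (0.31 ± 0.27 and 0.13 ± 0.20) had wider errors. A p that misses the threshold does not show that these levels were equal.

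Day 0 and day 7 libraries also differed in signs of other cells and of division. B and plasma cell genes, led by Cd74 with H2-Aa or Ighm on day 0, summed to 5780 to 12900 scaled CPM in CD4 day 0 and 373 to 501 in day 7 untreated libraries, and to 2790 to 6160 and 285 to 367 in CD8 libraries, with Mzb1 at 0 in the last group. Erythroid and platelet genes summed to 3120 to 9340 and 3.36 to 9.72 (CD4) and to 570 to 752 and 1.9 to 13.2 (CD8), and myeloid genes to 1040 to 1290 and 341 to 373, and 979 to 2340 and 435 to 611. Stromal genes summed to 177 to 244 and 179 to 219, and 163 to 175 and 92.6 to 132, with Krt5 at 0 in CD4 day 0 and both CD8 groups. The 7 cycling genes rose from 113 to 226 to 799 to 1130 in CD4 cells and from 90.2 to 131 to 1860 to 2490 in CD8 cells. The part of these cells and of division in the day 7 results was not tested.

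Other genes of protein synthesis, counted over lists of known function, were called mostly in 1 direction per list in CD8 cells. Of 19 other genes whose messages carry a TOP-like start, such as elongation factors, 10 were higher and 0 lower on day 7, with a median log2 fold change of 0.38, where 30.9% and 29.8% of all genes were; Eif3h had 0.85 (adjusted p = 7.7e-06) and Eef1d 0.56. Of 32 initiation and elongation factors 16 were higher and 6 lower, with Eif4h at 0.91 and the helicase gene Eif4a2 at −2.07 (adjusted p = 2.3e-09). Of 77 mitochondrial ribosomal protein genes 47 were higher and 4 lower (median 0.43), among them Mrpl27 (1.61) and Mrpl40 (1.06). Genes of nucleolar ribosome assembly went the other way, with 5 higher and 19 lower of 45; Gnl3, a nucleolar GTPase, fell by 0.82 and Noc3l by 0.87, while the RNA polymerase subunit gene Polr1d had 0.74. Of 15 regulators 2 were higher and 5 lower, with Myc, which drives ribosome production, at −2.14 (adjusted p = 2.9e-10).

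In CD4 cells, where 17.4% of all genes were called higher and 18.2% lower, the same lists were counted. TOP-like genes had 6 higher and 0 lower of 19 (Eif3h 0.75, Eef2 0.73), initiation and elongation factors 7 and 5 of 32 (Eif4a2 −1.50), mitochondrial ribosomal proteins 5 and 5 of 77, assembly genes 1 and 2 of 45 and regulators 1 and 1 of 15. The difference between CD8 and CD4 changes was called for Mrpl13 (CD8 minus CD4 log2 difference 0.74), Ddx21 of the assembly list (−0.68), Eif4a2 (−0.59), Myc (−1.60) and Mxd4 (−0.87) and for none of the TOP-like genes, so the lists as such are not shown to differ. Ribosomal proteins outside the symbol rule had 2 higher (Rpl36al, Rpl7l1) and 1 lower (Rpl22l1) of 6 in CD8 cells and 0 of 6 in CD4 cells. Between iNKT sublineages 1 gene of these 6 lists was called, the TOP-like Eef1b2, higher in iNKT2 than in iNKT1 (1.06 ± 0.20, adjusted p = 0.0384).

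Transfer of iNKT cells left every ribosomal protein gene short of edgeR's threshold in CD4 and CD8 cells. The 3 treated groups of a cell type are compared with the same untreated libraries, so the 3 sets of values are not independent. In CD8 cells 68, 74 and 73 of 78 members were lower with iNKT1, iNKT2 and iNKT17 cells, with median log2 fold changes of −0.08, −0.24 and −0.16 beside −0.00 over all genes in each. edgeR called 0 members in each (0.158%, 0.11% and 0.206% of all genes were called, and 0.0686%, 0.0206% and 0.0686% were called lower), and 0, 12 and 10 had an unadjusted p under 0.05. The number of all genes or regions at such a p was not counted, here or in the other comparisons. DESeq2 called 0, 0 and 1 members, where it called 2.66%, 2.5% and 3.35% of all genes (1.25%, 0.734% and 1.35% lower). Libraries with iNKT cells lay below all untreated ones for 5, 2 and 12 members and above them for 0. All genes gave 8.98%, 7.2% and 7.84% below and 9.5%, 8.58% and 8.48% above. The medians ran from −0.13 to 0.015, −0.39 to −0.12 and −0.23 to −0.07 when any 1 library was left out.

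Rpl5, a large subunit protein that joins with 5S RNA and can bind Mdm2, was the member nearest to a call. In CD8 cells it was at 8.854, 9.704 and 7.309 scaled CPM untreated, 6.524, 6.62 and 6.594 with iNKT1, 6.738, 5.602 and 4.952 with iNKT2, and 5.286, 6.394 and 4.223 with iNKT17 cells. All treated libraries lay below all untreated ones, with log2 fold changes of −0.39, −0.58 and −0.70 (adjusted p = 0.41, 0.21 and 0.11; DESeq2 for iNKT17 0.015). The CD8 day 0 level was 6.573 ± 0.324 (SD, n = 3), within the treated range. Rpl3 was at 333.5, 334.7 and 285.8 untreated and 226.5, 257.2 and 228.7 with iNKT17 cells (−0.42 ± 0.13, adjusted p = 0.15), and Rps18, of the small subunit's head, at 65.78, 66.94 and 49.78 against 45.17, 41.99 and 36.85 (−0.56, adjusted p = 0.18). Neither overlapped. For comparison with the day 7 changes above, Rps27 was at 206, 209.2 and 160.5 and Rps27l at 147.6, 174.7 and 137.9 with iNKT17 cells.

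CD4 cells had the same sign with smaller differences. With iNKT1, iNKT2 and iNKT17 cells 53, 65 and 65 of 78 members were lower, with medians of −0.02, −0.14 and −0.12 beside 0.01, 0.00 and 0.02 over all genes. edgeR called 0 members and 0.0% of all genes in each, and 0 members had an unadjusted p under 0.05. DESeq2 called 0 members, where it called 0.965%, 1.07% and 1.5% of all genes. The largest falls were of the rare Rpl39l (−0.69, −1.26 and −1.39; adjusted p = 0.96, 0.68 and 0.66), and Rpsa had −0.47 with iNKT2 and −0.40 with iNKT17 cells. When any single library was left out, each CD4 median took both signs within −0.29 and 0.14. Among the lists above, the treatments changed Myc alone, higher in CD8 cells with iNKT2 (0.63 ± 0.10, adjusted p = 0.0393) and iNKT17 cells (0.56 ± 0.10, adjusted p = 0.0424).

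The share of mitochondrial transcripts also differed with iNKT2 and iNKT17 cells. In CD8 cells it was 0.4022% to 0.6615% untreated, 0.4301% to 0.592% with iNKT1, 0.29% to 0.411% with iNKT2 and 0.2532% to 0.396% with iNKT17 cells. In CD4 cells it was 0.3354% to 0.5544%, 0.3641% to 0.5473%, 0.2306% to 0.443% and 0.2429% to 0.4002%. Its part in the lower ribosomal protein levels was not tested.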

How the data were processed

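All values used are counts deposited by the authors: reads per gene (bulk RNA), reads per region (ATAC) and UMIs per gene and cell (single cells). Per the labels' protocols, iNKT RNA used a TruSeq stranded mRNA kit, donor T cell RNA a full-length cDNA kit and single cells Chromium 3′ v2. The submitters' processing notes name Cell Ranger 2.1, Seurat 3, STAR 2.5.4, DESeq2 1.22.2, kallisto, Bowtie2, MACS2, bedtools 2.27.1 and HOMER 4.9.1, with mm10 and GRCm38; which tool made which table, strand use and the handling of shared reads are not given in the sources used here.

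Counts were tested with edgeR 4.0.16 (quasi-likelihood, robust, filterByExpr, TMM) in R 4.3.3, 1 fit per table or cell type, with Benjamini-Hochberg adjustment. The procedure was tested on simulated data. Alternatives were DESeq2 1.42.0, other scaling, no filter, pseudogene rows (symbols ending in -ps) added to their gene, only the compared groups, a replicate block and leaving out each library. Same-numbered ATAC libraries deviated together (correlations 0.602, 0.438 and 0.515), so blocked values stand beside those results. The ATAC table names no genes, contrary to the design, so regions were assigned by RefSeq GRCm38.p6 gene spans with 1000 bases on either side. Cells had at least 1000 UMIs, 500 genes and at most 10% mitochondrial UMIs; scanpy 1.11.5 clustered them on 1500 variable genes without members, and no doublet caller was run.

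Members and lists were chosen with earlier results of these data known. Genes named were the 3 largest rises and falls per subunit, 16 key members and up to 4 per list with the smallest p; in ATAC, regions nearest the start of key members and the 3 largest changes; in single cells, the 3 highest and lowest ratios. Others were named after their values were seen: members called in bulk RNA, their ATAC regions and single-cell ratios, and examples of pseudogene rows. Intervals cover counting error only. iNKT1 libraries sorted by CD4 were not analysed here. Some genes are not reported here.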

Additional observations from a re-analysis of the deposited data

How the results depend on the processing

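The replicate number does not pair the iNKT RNA libraries (correlations of −0.125, 0.0606 and −0.0395 between same-numbered deviations). With it as a replicate block, members called were 2 for iNKT2 over iNKT1, 0 for iNKT17 over iNKT1 (median −0.0686) and 1 for iNKT17 over iNKT2. For ATAC the block gave 55, 46 and 7 called regions in the same order. DESeq2 called 17, 7 and 15 members in the 3 iNKT comparisons, 1 in CD8 cells with iNKT17, 1 in the CD8 minus CD4 difference, and 29 and 2 ATAC regions for iNKT17 over iNKT1 and over iNKT2. Fitting only the compared groups gave 5 for iNKT2 over iNKT1, 0 for iNKT17 over iNKT2 and 5 for CD4 day 7. RLE scaling gave 1 for iNKT17 over iNKT2 and 23 ATAC regions for iNKT17 over iNKT1, and the iNKT17 over iNKT1 median was 0.0228 with RLE and with DESeq2 and −0.0277 with pseudogene rows. A stricter adjusted p of 0.01 left 7 and 4 ATAC regions. Adding pseudogene rows gave 1 call for iNKT17 over iNKT2, moved the share differences to 1.949 (iNKT2 minus iNKT1) and −1.982 (iNKT17 minus iNKT2) points, and reversed Rps2 (0.2786 in CD4, 0.3558 in CD8). Without mitochondrial UMIs the single-cell shares were 43.41% and 43.09%, and with the UMI minimum raised thymus B had 42.18%.

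Leaving out 1 library gave 0 to 3 calls for iNKT2 over iNKT1, 0 to 7 for iNKT17 over iNKT1, 1 to 12 for iNKT17 over iNKT2, 6 to 14 for CD4 day 7, 18 to 27 for CD8 day 7 and 0 to 1 for the CD8 minus CD4 difference, and 3 to 25 and 4 to 16 ATAC regions for iNKT2 and iNKT17 over iNKT1. Medians ran from 0.52 to 0.66, −0.1772 to 0.0296 and −0.73 to −0.51 (iNKT), −0.20 to 0.11 (CD4 day 7), −0.09 to 0.07 (CD8 day 7) and −0.12 to 0.21 (CD8 minus CD4). With iNKT1, iNKT2 and iNKT17 cells they ran from −0.18 to 0.14, −0.29 to 0.03 and −0.28 to 0.05 in CD4 and from −0.13 to 0.015, −0.39 to −0.12 and −0.23 to −0.07 in CD8 cells. The share differences ran from 1.245 to 1.404, −0.187 to 0.162 and −1.511 to −1.162 points (iNKT2 minus iNKT1, iNKT17 minus iNKT1, iNKT17 minus iNKT2), −0.546 to −0.161 (CD4 day 7) and −0.616 to −0.389 (CD8 day 7). Leaving out libraries for the share, and the fits of single members on the compared groups alone, were chosen after seeing the data. Of 523 alternative values for the 44 calls of named members, 422 stayed called in the same direction, 99 missed the threshold and 2 reversed; the causes were not tested.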
